A study of Mus musculus with 2 samples.

Results

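The integrated stress response and the supply of amino acids were followed through 36 genes, listed by symbol with earlier results of these data known: 9 transcription factors and regulators, 5 stress outputs, 10 enzymes of asparagine, serine, one-carbon and proline synthesis, 8 amino acid transporters and 4 aminoacyl-tRNA synthetases. All 36 symbols were found among the 55348 gene entries of both libraries. The series has 2 RNA-seq libraries of E13.5 hearts of strain 129sv, both labelled total RNA: 1 is wild type and 1 is Lmna H222P/H222P, homozygous for the H222P allele of Lmna. H222P is a missense allele of the gene for lamins A and C, carried in every cell of the animal and used as a model of heart and muscle laminopathy; the series as a whole concerns the histone demethylase LSD1. The labels name no drug or other agent, and do not give the number or sex of the hearts in a library.

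In the integrated stress response, kinases that sense amino acid shortage, misfolded protein, heme shortage or viral RNA phosphorylate the translation initiation factor eIF2. General protein synthesis slows, while translation of the ATF4 messenger RNA is favoured by its upstream reading frames. ATF4 then pairs with C/EBP proteins on composite DNA elements and switches on genes that make, import and charge amino acids, so the amount of Atf4 transcript is not a measure of ATF4 protein. Serine made from glycolysis feeds glycine and folate-bound one-carbon units into nucleotide synthesis, which a growing embryonic heart needs.

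With 1 library per genotype there was no replicate check and no test of the genotypes. Each ratio below is Lmna H222P/H222P over wild type after scaling by TMM, a method that centres the bulk of genes on a ratio of 1. Its 95% interval is an exact binomial interval; it covers counting error only and can be too narrow even for that, as the reads carry no molecular identifiers. CPM is the read count after this scaling, set to a common library size. A gene with a mean of at least 1 CPM is called measured, and higher or lower means at least 1.5-fold. Gene reads totalled 32669225 (wild type) and 25120790 (H222P), so a count of 3 reads, the limit that a count of 0 allows, equals 0.0965 and 0.114 CPM. Lmna had 2068 wild-type and 1865 H222P reads (log2 ratio 0.09, −0.00 to 0.18), which does not check a missense label. All 12 cardiomyocyte markers were detected, with at least 3501 wild-type and 2157 H222P reads each, and 9 of them were lower in the H222P library, their sum going from 27961 to 15596 CPM. All 12 hepatocyte markers were higher (35.3 to 6142 CPM summed, none at 0 reads), as were 8 of 9 markers of red cell precursors (426 to 2428 CPM summed, none at 0) and 5 of 8 measured neural markers (28.4 to 64.3 CPM summed over 9 markers). Of 8 globin genes 4 were higher and 0 lower (11727 to 17581 CPM summed), of 8 lung and foregut markers 3 were higher and 3 lower (114 to 208 CPM summed), and of 8 macrophage markers 1 was higher and 1 lower (145 to 121 CPM summed). Among all measured genes 11.2% were higher and 11.1% lower, so the macrophage counts are near those shares. Fewer cells of a type and less RNA per cell cannot be told apart in such libraries, and the part of these other cells in the ratios below was not tested.

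The DNA element most tied to this pathway is shown first, since several of the genes that differ carry it. The promoters of 31 of the 36 genes were in the RefSeq promoter table (GRCm38.p6, the assembly of mm10), as windows from 250 bases before to 50 bases after a start site; Slc7a3, Slc7a5, Slc1a5, Nars and Wars were not in it. The core of the C/EBP-ATF response element, TGATGNAA on either strand, was present in 11 of these 31 genes (35.5%), against 4.51% of all 27025 genes of the table, or 3.97% of its 32851 promoters. Many of these genes were chosen as known ATF4 targets, so this share describes the choice and is not a result of the libraries. The cyclic AMP response element TGACGTCA was found in 1 gene, Ppp1r15a, against 2.03% of all genes, and the endoplasmic reticulum stress element in 0, against 0.137%. None of the 31 genes held more than 1 of the 3 motifs. Each match is printed below in 30 bases, turned so that the core reads TGATGNAA, with the core in capitals.

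Asns, chr6:7693214-7693243, minus strand: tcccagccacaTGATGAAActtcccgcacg
Slc1a4, chr11:20332699-20332728, plus strand: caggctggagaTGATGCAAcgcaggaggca
Trib3, chr2:152344028-152344057, plus strand: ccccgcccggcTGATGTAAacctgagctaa
Vldlr, chr19:27216809-27216838, minus strand: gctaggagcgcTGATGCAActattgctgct
Gars, chr6:55037960-55037989, minus strand: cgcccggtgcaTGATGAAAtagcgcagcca
Pycr1, chr11:120643833-120643862, minus strand: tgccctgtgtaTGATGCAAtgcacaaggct
Nupr1, chr7:126625562-126625591, plus strand: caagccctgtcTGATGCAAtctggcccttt
Atf3, chr1:191183425-191183454, plus strand: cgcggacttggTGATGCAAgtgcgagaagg
Slc7a11, chr3:50443661-50443690, minus strand: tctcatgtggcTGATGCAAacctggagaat
Slc7a11, chr3:50443642-50443671, plus strand: gggctgcatgaTGATGCAAattctccaggt
Chac1, chr2:119351038-119351067, minus strand: cctggcaggagTGATGCAAcggcagggaag
Fgf21, chr7:45615611-45615640, plus strand: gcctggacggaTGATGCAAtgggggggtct

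Of the 8 measured genes that were higher in the H222P library, all of them in the promoter table, 3 held the core (Asns, Slc1a4 and Trib3). Of the 20 in the table that lay between the bounds, 5 held it, and the 1 lower gene, Vldlr, held it too. The core was therefore present in promoters of genes that were higher, lower and between the bounds. In Asns it began 23 bases before the RefSeq start site, in Slc1a4 4 bases before it, and in Trib3 14 bases after it, while in Vldlr it began 200 bases upstream. These distances depend on the start site used. The cores of Asns and Vldlr lie inside the GENCODE span of their gene, and that of Trib3 lies before it. In Gars, between the bounds, it began 30 bases upstream, and in Chac1, with a mean under 1 CPM, 193 bases upstream. Slc7a11 was the only one of the 11 with a pair of cores, starting 66 and 47 bases upstream on opposite strands.

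**Figure D1:**
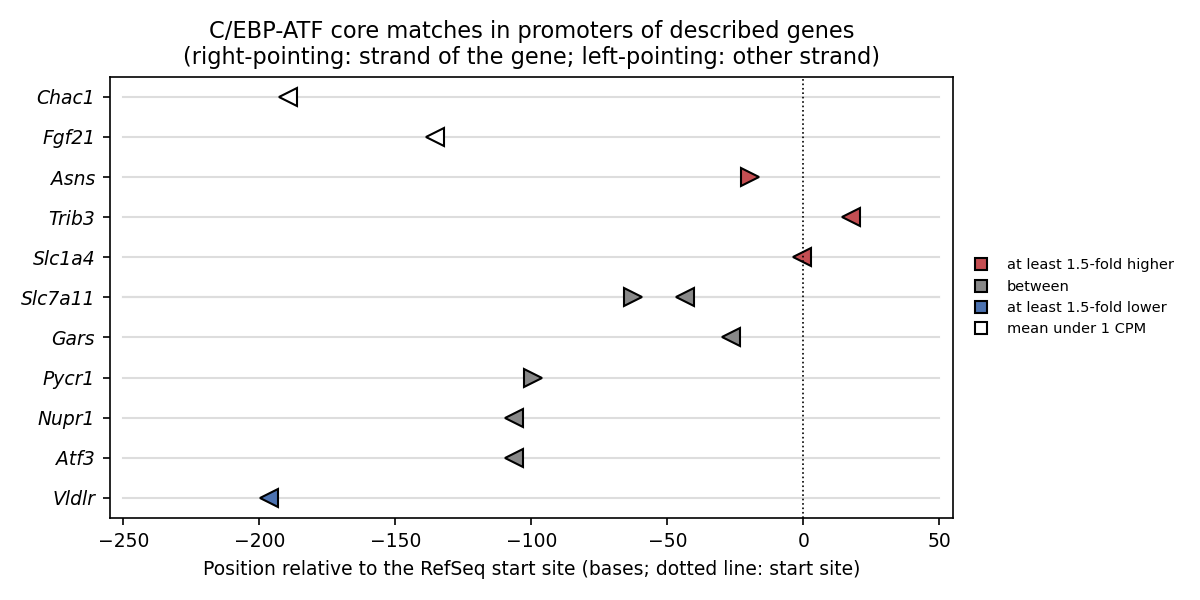
Position of each C/EBP-ATF core match (triangles, pointing right on the gene's strand and left on the other) in bases from the RefSeq start site, for the 11 genes that hold one; the 9 measured genes are ordered by log2 ratio, below Chac1 and Fgf21. The cores of the higher genes Asns, Slc1a4 and Trib3 lie within 23 bases of the start site, and that of Gars, between the bounds, at 30 bases before it. Those of the lower gene Vldlr and of Chac1, with a mean under 1 CPM, lie at 200 and 193 bases before it.

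The 36 genes together took 0.174% of all gene reads in wild type and 0.228% in H222P, and the scaled sum was 1.19-fold higher (1.17 to 1.20) in the H222P library. Of the 33 measured genes, 8 were at least 1.5-fold higher (24.2%), against 11.2% of all 14717 measured genes, and 1 was lower (3.03%), against 11.1%; because the genes were listed with earlier results known, these shares are a description. Of those with a mean of at least 5 CPM, 7 of 30 were higher (23.3%), against 7.36% of all such genes. The ratio was above 1 for 26 of the 33 (78.8%), against 50.3% of all measured genes. The whole counting interval lay above a ratio of 1 for 23 genes (69.7%, against 32.6%) and below it for 4 (12.1%, against 33.2%). Such intervals narrow as reads increase, so these shares also depend on the levels of the genes compared. The median log2 ratio was 0.35, against 0.00 over all measured genes. With total counts in place of TMM, the median over all genes moved to 0.15 and that of the 33 genes to 0.50, a distance of 0.35 under both scalings; 13 of the 33 were then higher, against 15.2% of all genes (7.74% lower). Chac1, Fgf21 and Slc7a3 had a mean under 1 CPM and are left out of these counts.

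**Figure D2:**
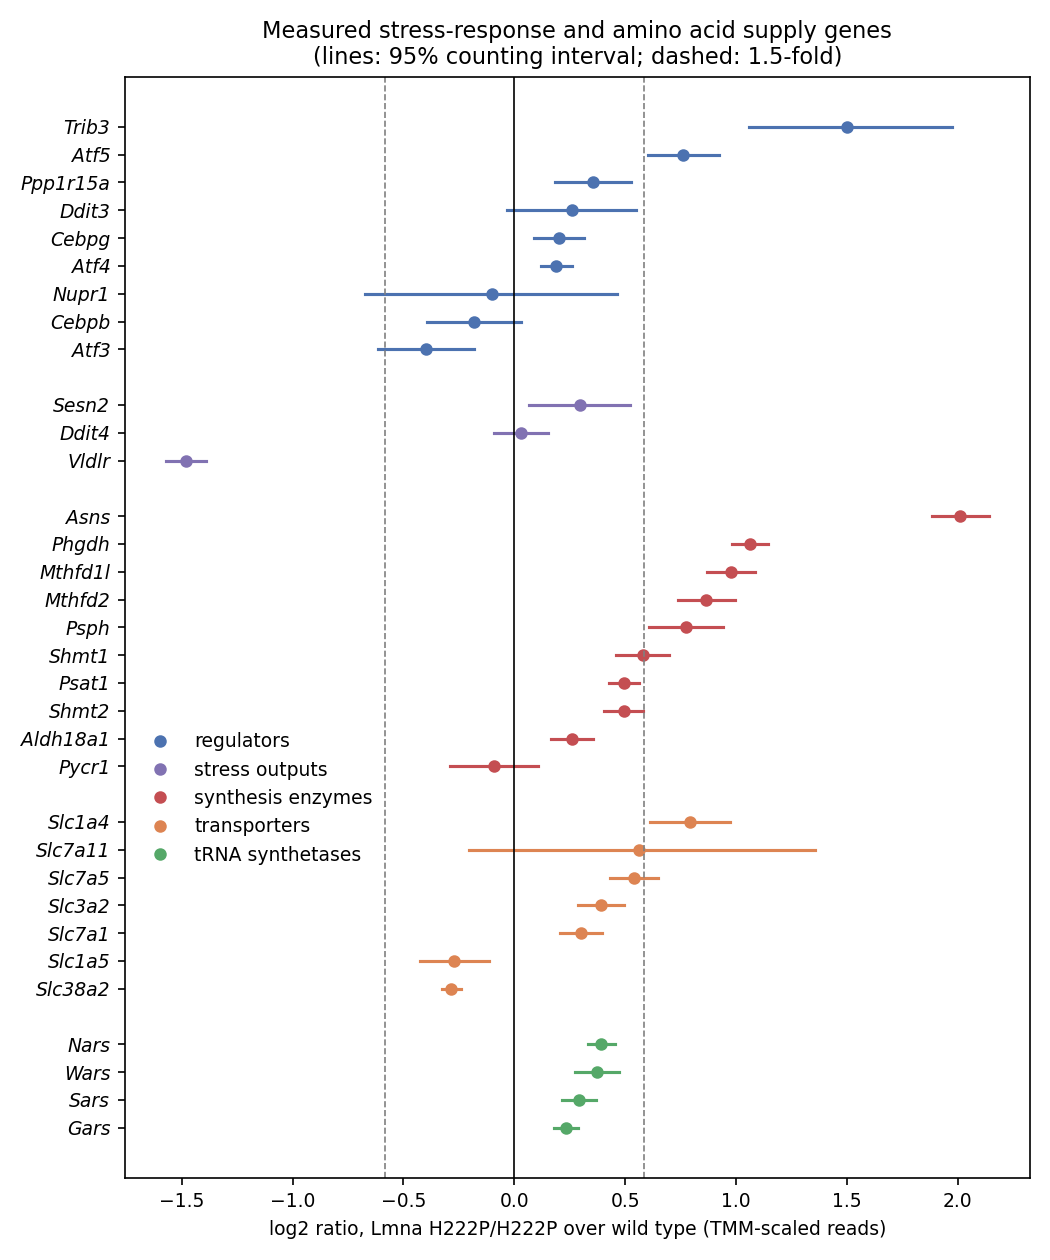
Log2 ratio (Lmna H222P/H222P over wild type) of the 33 measured genes by role, with 95% counting intervals as lines and the 1.5-fold bounds dashed. Asns stands highest at 2.01 and Vldlr lowest at −1.48; most regulators lie between the bounds, while 5 of 10 synthesis enzymes lie above them.

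Among the regulators, the transcript of the central factor differed little and 2 downstream genes differed more. Atf4 (chr15:80255184-80257541) had 3357 wild-type and 3246 H222P reads, or 108 and 123 CPM, a 1.14-fold higher level (1.09 to 1.20). Per kilobase of exon it was the most abundant of the 8 regulators with 1 gene model, at 45.8 and 52.2 CPM per kilobase. The lengths merge all annotated exons of a gene and not only the transcripts present. Comparisons between genes per kilobase, here and below, are therefore approximate. Cebpg, the C/EBP protein that partners ATF4, stood at 41.4 and 47.6 CPM, a ratio of 1.15 (1.06 to 1.24) much like that of Atf4.

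Atf5, a close relative of Atf4 that is also under translational control, had 555 and 799 reads (17.8 and 30.3 CPM) and was 1.70-fold higher (1.52 to 1.89). The Atf4 transcript thus exceeded that of Atf5 5.11 times per kilobase in wild type and 3.43 times in H222P. Trib3, a pseudokinase induced by ATF4 and CHOP that restrains them in turn, had 58 and 140 reads (1.86 and 5.31 CPM), a 2.83-fold higher level (2.08 to 3.93). Its interval is the widest of the 8 higher genes, and both bounds lie past 2-fold.

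The remaining regulators lay between the bounds. Ddit3, which encodes the pro-apoptotic factor CHOP, had 199 and 202 reads (6.40 and 7.66 CPM), a log2 ratio of 0.26 (−0.03 to 0.55). Ppp1r15a, whose product GADD34 takes the phosphate off eIF2, was 1.28-fold higher (1.14 to 1.44) at 17.4 and 22.2 CPM. Atf3, a stress-induced factor downstream of ATF4, was instead 1.32-fold lower (1.14 to 1.53), with 461 and 297 reads.

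Cebpb, a C/EBP factor of stress and differentiation, had 434 and 325 reads and a log2 ratio of −0.18 (−0.39 to 0.03). Nupr1, a small chromatin protein of the stress response, had 62 and 49 reads; its log2 ratio of −0.10 (−0.67 to 0.46) became 0.04 with total counts. Of the 9 regulators, 2 were thus higher and 0 lower, against 11.2% and 11.1% of all measured genes. Their median log2 ratio was 0.20, and the intervals of Ddit3, Cebpb and Nupr1 held a ratio of 1.

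**Figure D3:**
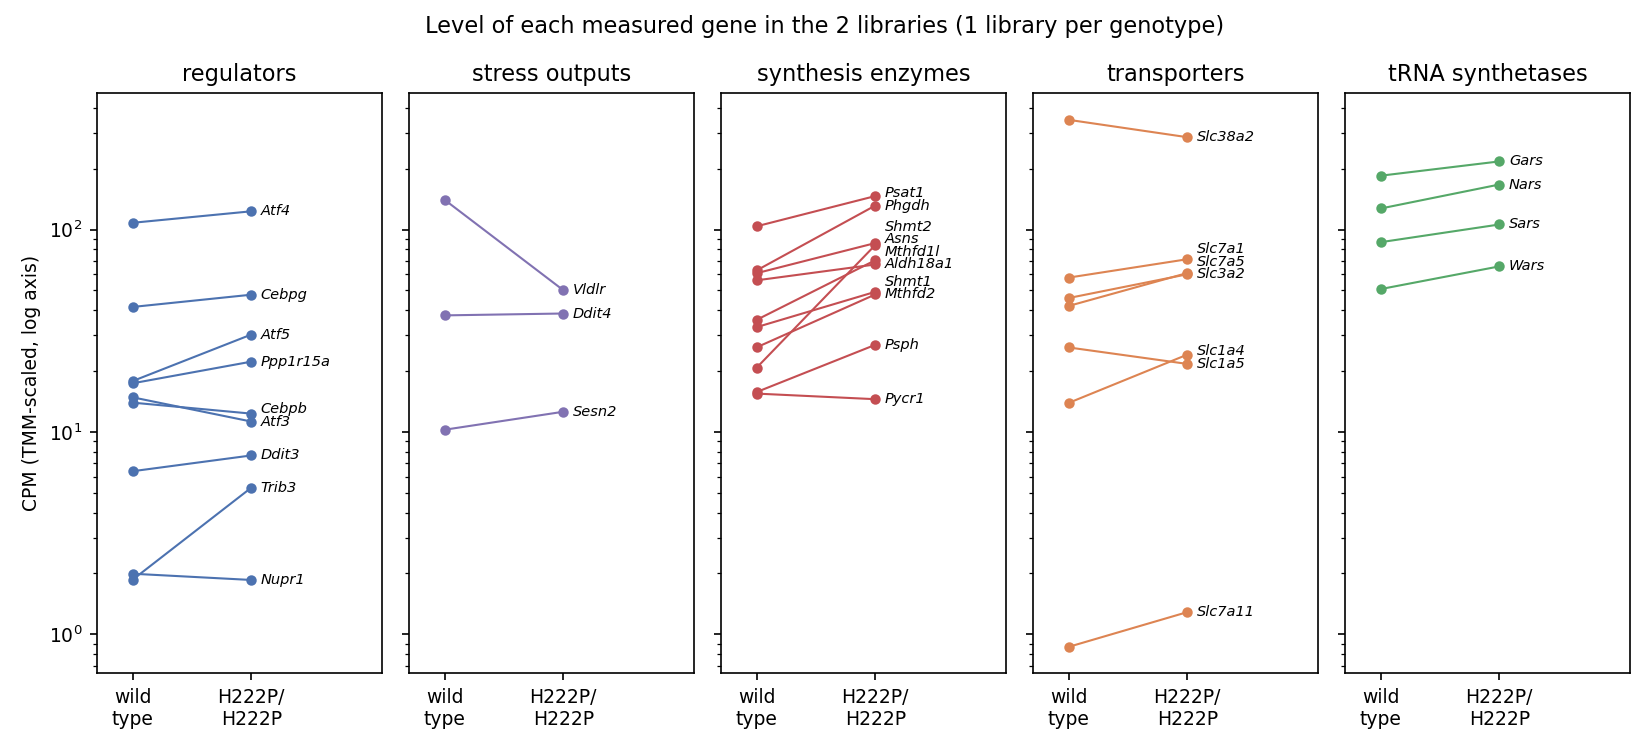
CPM of each measured gene (log axis) in the wild-type and the H222P library, 1 panel per role, with a line joining the 2 values of a gene. The lines of Asns and Trib3 slope up most and that of Vldlr slopes down, while Slc38a2 and Gars have the highest CPM of their panels in both libraries.

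The stress outputs differed among themselves. Vldlr, a lipoprotein receptor of heart and muscle that is also an ATF4 target, had 4353 wild-type and 1323 H222P reads (140 and 50.1 CPM) and was 2.79-fold lower (2.62 to 2.97), rank 240 from the lowest of 14717 measured genes. It was the 1 gene of the 36 that was lower by 1.5-fold, in a library in which 9 of 12 cardiomyocyte markers were also lower; their part in its ratio was not tested.

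Ddit4 and Sesn2, which both restrain the growth kinase complex mTORC1, lay between the bounds. Ddit4 had 37.7 and 38.5 CPM, a log2 ratio of 0.03 (−0.09 to 0.15) that was −0.01 with DESeq2 size factors, and Sesn2 had 10.3 and 12.6 CPM, a ratio of 1.23 (1.05 to 1.43). Chac1, which degrades glutathione and responds strongly to ATF4, had only 6 and 22 reads, a ratio of 4.08 (1.70 to 13.0) at levels of 0.193 and 0.834 CPM. Fgf21, a hormone released under metabolic stress, mainly by liver, had 0 wild-type reads and 1 H222P read, both below the limit that a count of 0 allows, and no ratio is given. Both Chac1 and Fgf21 carry the core printed above, and both were barely detected.

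The enzymes that make asparagine, serine and one-carbon units were the group that stood highest. Of the 10 enzymes, 5 were higher and 0 lower (median log2 ratio 0.68), against 11.2% and 11.1% of all measured genes. The intervals of 9 lay wholly above a ratio of 1, against 32.6% of all measured genes. That share covers all genes from 1 CPM up, many with wider intervals, while the 10 enzymes had means from 15.0 to 125 CPM. The summed level of the 10 enzymes went from 431 to 723 CPM, 1.68-fold higher (1.64 to 1.72). Hepatocyte and red cell precursor markers were higher in the same library (35.3 to 6142 and 426 to 2428 CPM summed), and their part in these ratios was not tested.

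Asns, asparagine synthetase (chr6:7675169-7693254), makes asparagine from aspartate and glutamine and is the classic ATF4 target, with the core in the first sequence printed above. It had 647 wild-type and 2213 H222P reads, or 20.8 and 83.9 CPM, and was 4.03-fold higher (3.69 to 4.41). It ranked 406 from the highest of 14717 measured genes, and among the 33 measured genes only the interval of Trib3 overlapped its own. Per kilobase of exon it stood at 7.61 CPM in wild type and 30.7 in H222P, so the Atf4 transcript exceeded it 6.02 times in the first library and 1.70 times in the second. Without Asns, 7 of the other 32 measured genes were higher and their median log2 ratio was 0.33.

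The pathway from glycolysis to serine has 3 enzymes, and their ratios were unequal. Phgdh, the entry step (chr3:98313170-98339990), had 1955 and 3466 reads (62.9 and 131 CPM), a 2.09-fold higher level (1.98 to 2.21). Psat1, the transaminase of the second step, had 3227 and 3861 reads (104 and 146 CPM), a ratio of 1.41 (1.35 to 1.48). Psph, the phosphatase that releases serine, had 490 and 711 reads (15.8 and 26.9 CPM), a ratio of 1.71 (1.52 to 1.92). With the reads of both strands added, a setting chosen after seeing the data, Psph was at a ratio of 1.40 (1.30 to 1.51), under the 1.5-fold bound, and 7 of the 33 measured genes were higher. Psph is overlapped on the other strand by Cct6a. The interval of Phgdh lay above those of both later steps. Per kilobase, Phgdh and Psat1 were nearly level in wild type (ratio 1.04), whereas in H222P Phgdh exceeded Psat1 1.54 times.

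Serine is split to glycine and a one-carbon unit by Shmt1 in the cytosol and Shmt2 in mitochondria. Shmt1 had 1025 and 1299 reads (33.0 and 49.2 CPM), a ratio of 1.49 (1.38 to 1.62), just inside the 1.5-fold bound and past it with total counts or with the deeper library thinned. Shmt2 had 60.9 and 85.7 CPM, a ratio of 1.41 (log2 interval 0.41 to 0.58). The intervals of the 2 isoenzymes overlapped, and the mitochondrial one exceeded the cytosolic one 2.31 times per kilobase in wild type and 2.17 times in H222P.

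The next mitochondrial steps stood higher than Shmt2. Mthfd2, which oxidises methylene-tetrahydrofolate and is known as an enzyme of embryonic and proliferating cells, had 815 and 1261 reads (26.2 and 47.8 CPM), a ratio of 1.82 (1.67 to 1.99). Mthfd1l, which releases formate for export to the cytosol (chr10:3973118-4167081), had 1114 and 1861 reads (35.8 and 70.5 CPM), a ratio of 1.97 (1.83 to 2.12). Neither interval overlapped that of Shmt2.

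Proline synthesis was the exception among the enzymes. Aldh18a1, its first step from glutamate, had 56.1 and 67.2 CPM (ratio 1.20, 1.12 to 1.28). Pycr1, the mitochondrial reductase of the last step, had 481 and 383 reads (15.5 and 14.5 CPM), a log2 ratio of −0.09 (−0.29 to 0.11) that was 0.05 with total counts. Pycr1 carries the C/EBP-ATF core, as Asns does, and its interval held a ratio of 1.

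Transporters were mixed, and their summed level was nearly the same in both libraries (535 and 526 CPM; ratio 0.983, 0.961 to 1.01). Of 7 measured transporters, 1 was higher, a share near the 11.2% of all measured genes, and 0 lower, against 11.1%. Their median log2 ratio was 0.39. Slc1a4, a carrier of serine, alanine and other neutral amino acids, had 433 and 636 reads (13.9 and 24.1 CPM) and was 1.73-fold higher (1.53 to 1.96). Its paralogue Slc1a5, the glutamine carrier ASCT2, was 1.21-fold lower (log2 interval −0.43 to −0.11), with 813 and 572 reads. The order of these paralogues was therefore reversed: Slc1a5 exceeded Slc1a4 1.77 times per kilobase in wild type and was at 0.846 times its level in H222P.

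Slc7a5 and Slc3a2 encode the light and heavy chains of LAT1, the main importer of leucine and other large neutral amino acids. Slc7a5 had 1304 and 1609 reads (41.9 and 61.0 CPM), a ratio of 1.45 (1.35 to 1.57), and Slc3a2 had 1427 and 1586 reads (45.9 and 60.1 CPM), a ratio of 1.31 (1.22 to 1.41). Their intervals overlapped, and the light chain stood at 0.870 and 0.966 times the heavy chain per kilobase. Slc7a1, the cationic amino acid carrier that imports arginine and lysine, had 57.9 and 71.3 CPM, a ratio of 1.23 (1.15 to 1.32).

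Slc38a2, the sodium-coupled carrier SNAT2 that is induced by amino acid shortage, drew the most reads of the 36 genes in both libraries (10825 and 7539, or 348 and 286 CPM) and was 1.22-fold lower (1.18 to 1.25). Its reads offset the other transporters in the sum. Slc7a11, which imports cystine for glutathione synthesis, had 27 and 34 reads and a log2 ratio of 0.56 with a wide interval (−0.20 to 1.35). Slc7a3, a second cationic carrier, had 16 and 26 reads (0.514 and 0.985 CPM), an interval of 0.989 to 3.82 for its ratio.

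All 4 aminoacyl-tRNA synthetases were slightly above a ratio of 1, and none reached 1.5-fold. Gars, which charges glycine, had 5736 and 5725 reads (184 and 217 CPM), a ratio of 1.18 (1.13 to 1.22). Sars, which charges serine, had 86.6 and 106 CPM (1.22, 1.16 to 1.29), Nars, which charges asparagine, 127 and 167 CPM (1.31, 1.26 to 1.37) and Wars, which charges tryptophan, 50.8 and 65.8 CPM (1.29, 1.21 to 1.39). All intervals lay above a ratio of 1, and that of Nars lay above that of Gars. The other 16 cytosolic synthetases gave a like picture, with 1 higher and 0 lower (median log2 ratio 0.33), against 11.2% and 11.1% of all measured genes. Vars, for valine, stood highest at 1.70 (1.61 to 1.79), Eprs, for glutamate and proline, had the highest CPM (ratio 1.19, 1.16 to 1.23), and Dars, for aspartate, was lowest at a log2 ratio of −0.07 (−0.13 to −0.00). The 17 mitochondrial synthetases, which are not part of the classic ATF4 programme, had a median of 0.04. Of these 0 were higher and 1 lower, against the same 11.2% and 11.1%. Ears2 stood lowest, 1.54-fold lower (1.40 to 1.70), while Lars2, with the highest CPM, was at a log2 ratio of 0.04 (−0.02 to 0.11).

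Upstream of ATF4, 2 of 15 genes for eIF2, eIF2B, the eIF2 kinases and the eIF2 phosphatase were higher and 0 lower (median log2 ratio 0.19). This count of higher genes is near the share of all measured genes, 11.2%, and 11.1% of all measured genes were lower. The highest was Eif2ak1, the kinase HRI that senses heme shortage and is abundant in red cell precursors, with 36.8 and 70.0 CPM (ratio 1.90, 1.77 to 2.05); markers of those precursors were higher in the same library (426 to 2428 CPM summed), and their part was not tested. Eif2s2, a subunit of eIF2, had the highest CPM, at a ratio of 1.13 (1.10 to 1.16), and Eif2s3x, another subunit, the lowest, 1.25-fold lower (1.19 to 1.32).

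Genes of neighbouring amino acid routes spread more widely. Of 16 further genes of serine, glycine and folate metabolism, 4 were higher and 2 lower (median log2 ratio 0.34). Among all measured genes 11.2% were higher and 11.1% lower, so the count of lower genes is near that share. Gldc, the decarboxylase of the glycine cleavage system and strongly expressed in liver, went from 124 to 546 reads (ratio 5.17, 4.26 to 6.36), while Aldh1l2, a mitochondrial folate enzyme and known ATF4 target, was 1.94-fold lower (1.76 to 2.15). Tyms, thymidylate synthase, had the highest CPM of them, at a ratio of 1.45 (1.37 to 1.54). Of 21 genes for other amino acids and glutathione, 10 were higher and 0 lower (median 0.56), against the same 11.2% and 11.1%. The sum of the 21 was nevertheless nearly level (ratio 1.03, 1.01 to 1.04). Cth, which makes cysteine from cystathionine and is abundant in liver, stood at 4.34 and 21.5 CPM (ratio 4.94, 4.10 to 6.03), the aminotransferase Got2, with the highest CPM, at 0.953 (0.922 to 0.984), and Oat, ornithine aminotransferase, was 1.47-fold lower (1.42 to 1.52). Hepatocyte markers were higher in the same library (35.3 to 6142 CPM summed), and their part in Gldc and Cth was not tested.

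Of 19 other measured amino acid transporters, 3 were higher and 2 lower (median 0.06), shares near those of all measured genes (11.2% higher and 11.1% lower). Slc6a9, the glycine transporter GlyT1 that red cell precursors also express, was 3.62-fold higher (3.13 to 4.20), with precursor markers higher in the same library (426 to 2428 CPM summed; their part was not tested). Slc38a4, which had the highest CPM and the lowest ratio of those with a mean of at least 5 CPM, was 1.18-fold lower (1.14 to 1.21). Of 8 other measured stress genes that ATF4 can induce, 1 was higher and 1 lower (median −0.29), again near the shares of all measured genes. Gadd45a, a growth-arrest gene also induced by p53, stood at 5.11 and 19.7 CPM (ratio 3.84, 3.21 to 4.62), whereas Eif4ebp1, a brake on translation, was 1.52-fold lower (1.44 to 1.61) and Sqstm1, an autophagy receptor, 1.30-fold lower (1.24 to 1.36).

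The endoplasmic reticulum and mitochondrial chaperone lists had medians near a ratio of 1. All 18 chaperones and regulators of the endoplasmic reticulum unfolded protein response were between the bounds. Most measured genes lay there too (11439 of 14717). The median of the 18 was −0.02, with log2 ratios from −0.22 (Pdia6, a disulfide isomerase) to 0.42 (Sdf2l1, a chaperone partner). Hsp90b1, with the highest CPM of them, was at a ratio of 0.932 (0.918 to 0.947). All 8 mitochondrial chaperones and proteases were also between the bounds (median 0.06), against the same 11439 of 14717 genes. They ranged from Hspa9 at −0.17 to Hspe1 at 0.19, with Hspd1, a chaperonin, at 0.13. The 10 synthesis enzymes, at a median of 0.68, thus stood above each of these lists, as the plot of pathway lists shows; no test of the difference between lists was made.

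**Figure D4:**
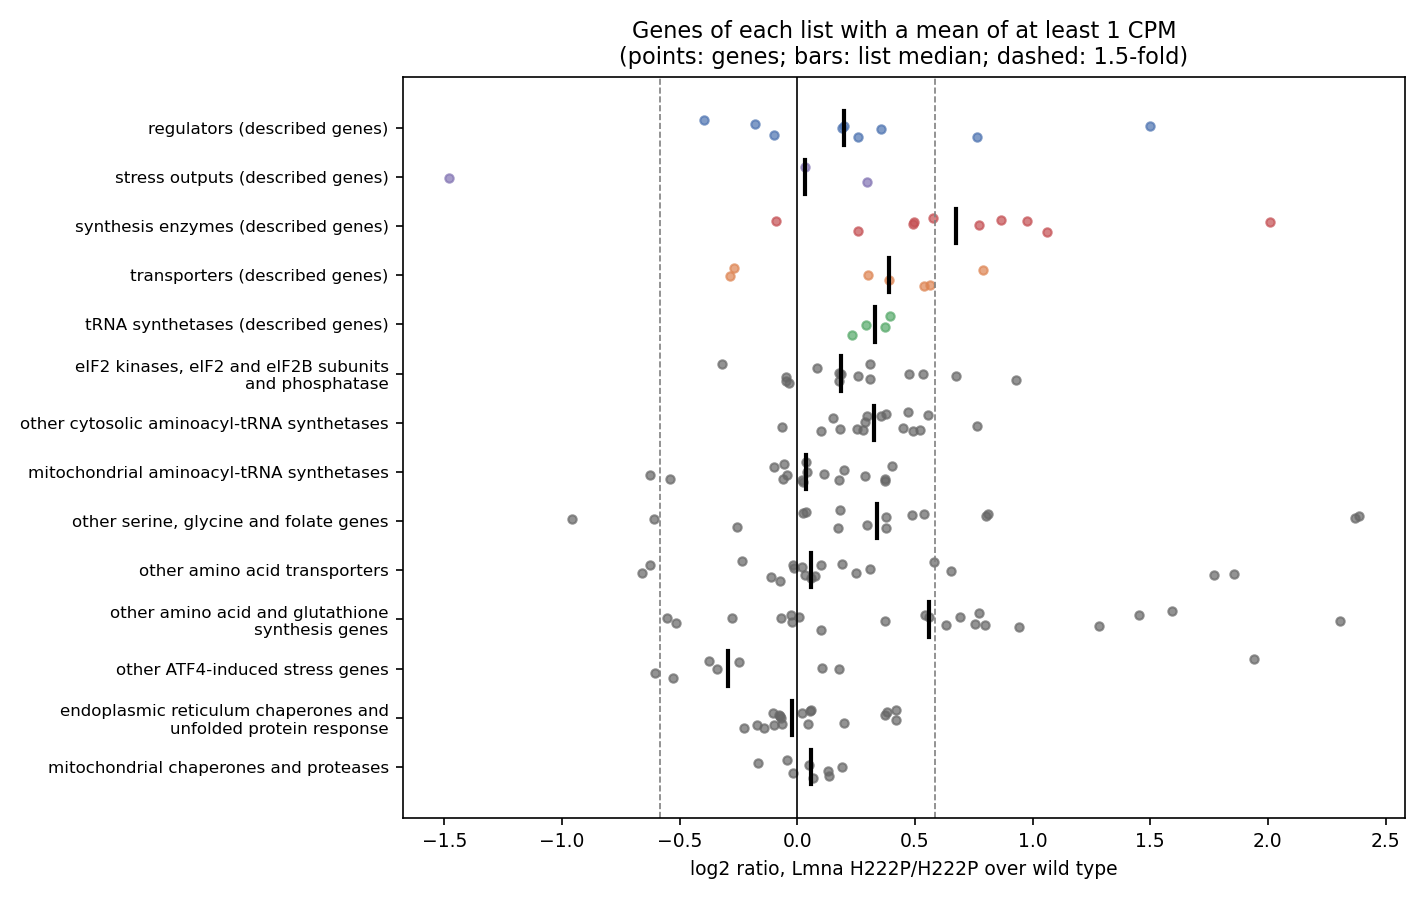
Log2 ratio (Lmna H222P/H222P over wild type) of every measured gene (points) in the 5 roles described and in 9 neighbouring lists, with list medians as bars and the 1.5-fold bounds dashed. The synthesis enzymes have the highest median, 0.68, and the unfolded protein response genes cluster around −0.02.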

How the data were processed

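RNA-seq counts of 2 libraries were used, 1 wild type and 1 Lmna H222P/H222P, grouped by genotype. The authors deposited raw, unnormalized counts per gene. STAR, HTSeq, DESeq and build mm10 are named in the submitters' processing notes, without roles or versions; the annotation release was not given in these sources. The reverse-strand column, which held 19.3 and 20.5 times the reads of the forward column, was used. The 4 summary entries were left out; reads mapped to several places (5.37% and 6.09%) are not in gene counts. TMM factors (0.952 and 1.05) came from edgeR 4.0.16 in R 4.3.3 over genes averaging at least 1 CPM. Ratios used a prior count of 0.5, and exact Clopper-Pearson intervals came from scipy 1.17.1 in Python 3.11.15. The intervals were tried on simulated counts with counting error only, so duplicate reads and spread between animals were not tested. Lengths (all annotated exons of a gene, merged) and gene coordinates are from GENCODE M21 (GRCm38). Ddit3 matched more than 1 gene model and has no length. The genes and lists were chosen with earlier results of these data known. All 36 genes are described. From each neighbouring list the gene with the highest CPM and the highest and lowest ratios among those with a mean of at least 5 CPM were named; 1 gene this rule gave is not reported here. The alternatives (9, of which the sum of both strand columns was chosen after seeing the data) changed scaling, filter, prior count, strand column or depth.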

Additional observations from a re-analysis of the deposited data

Results flagged for a closer look

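Reads on the opposite strand, which the comparisons above do not use, made up at least 10% of a gene's stranded reads in both libraries for 4 of the 36 genes. Psph had 769 opposite-strand reads in the wild-type and 783 in the H222P library, more than on its own strand (490 and 711), and Cct6a, with 10638 and 10381 reads, overlaps it on that strand; the ratio of Psph was 0.77 on the log2 scale from its own strand and 0.86 from the unstranded column, which held only 420 and 650 reads of the gene. Atf5 had 236 and 210 opposite-strand reads and is overlapped there by Nup62 (2706 and 2586 reads); its log2 ratio was 0.76 from its own strand and 0.70 from the unstranded column (456 and 631 reads). Ddit3 had 100 and 83 such reads, with log2 ratios of 0.26 (own strand) and 0.17 (unstranded), and Slc7a11 had 34 and 35, with 0.56 and 0.41. With the reads of the 2 strand columns added, a setting chosen after seeing the data, the log2 ratio was 0.49 for Psph (1259 and 1494 reads), under 1.5-fold, and 0.59 for Atf5 (791 and 1009 reads), a ratio of 1.51 with an interval from 1.37 to 1.65.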

How the results depend on the processing

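Under 8 alternatives (DESeq2 size factors, total counts, TMM without marker genes, no filter or one at 5 CPM, a larger prior count of 5, unstranded reads, and thinning), the 8 higher genes and Vldlr kept their calls wherever they were measured. In a ninth, chosen after seeing the data, the 2 strand columns were added together: 7 genes were higher, without Psph, and 1 lower. With total counts 13 genes were higher and the median log2 ratio was 0.50. The added genes (Psat1, Shmt1, Shmt2, Slc7a5 and Slc7a11) had ratios from 1.41 to 1.49 with TMM; 27 of 33 measured genes kept their call in each of the 9 alternatives that measured them. No paired analysis was possible because each genotype has 1 library. Depth limited Chac1, Slc7a3, Slc7a11, Fgf21 and Nupr1, at under 100 reads per library.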
